A study of Homo sapiens with 5 samples.

Results

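The 10 genes HSPA5, HSP90B1, PDIA4, CALR, XBP1, ATF4, ATF3, DDIT3, HERPUD1 and TRIB3 belong to the unfolded protein response and the integrated stress response. They were taken by name from the 32732 genes that the files of all 5 libraries list, and all 10 were found and passed the filter on low counts in every test. The human brain organoids came from the human embryonic stem cell line H9, in its AAVS-ChR2-EYFP derivative, which carries a light-gated channel and a fluorescent protein and is labelled WT. D0 held organoids on day 42 of culture. HIP_2MPT and PFC_2MPT held grafts 2 months, and HIP_4MPT and PFC_4MPT grafts 4 months, after implantation into the hippocampus (HIP) or prefrontal cortex (PFC) of immunodeficient SCID mice 6 to 8 weeks old. Each condition was 1 library of pooled material with no map from cells to organoids or mice, so p-values measure the spread between libraries, and the HIP and PFC libraries served as the 2 samples of a stage.

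Proteins that enter the endoplasmic reticulum (ER) are folded by chaperones in its lumen. When unfolded proteins build up there, the sensors ATF6, IRE1 and PERK raise the transcription of chaperones and of genes for ER-associated degradation, IRE1 by splicing the XBP1 transcript. PERK also phosphorylates eIF2, as do kinases that sense amino acid shortage, heme shortage or viral RNA, and translation then falls in general while that of ATF4 rises. This second route is the integrated stress response, and ATF4 induces ATF3, DDIT3 (the factor CHOP) and TRIB3. XBP1 and ATF4 are controlled in large part by splicing and by translation, and neither is measured by counts of 3′ ends. Cultured brain organoids, whose core lies far from the medium and which have no blood vessels, are known to express stress genes.

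The promoters show which of these genes carry the sequences through which the response acts. The ER stress response element (ERSE, CCAAT, 9 bases, CCACG) was found on either strand in the promoters of HSPA5, HSP90B1 (2 copies), CALR and XBP1. It was held by 22 of the 27305 promoters searched (0.0806%), each running from 250 bases before to 50 bases after the start of a gene. ERSE-II (ATTGG, 1 base, CCACG) was found in the promoter of HERPUD1 and in 15 promoters in all (0.0549%). The CARE element TGATGNAA, which ATF4 heterodimers bind, was found in ATF3 and HERPUD1 and in 3.67% of promoters. The UPRE core TGACGTGN was found in none of the 10 and in 1.99% of promoters. PDIA4, ATF4, DDIT3 and TRIB3 held none of the 4 motifs in this window, which says only that these letters are not there. RefSeq sequences (GRCh38.p14) are printed 5′ to 3′ on the strand of the gene with the match in capitals, and a match that reads in the other direction starts with CGTGG or TTGCA.
HSPA5, chr9:125241386-125241414, minus strand: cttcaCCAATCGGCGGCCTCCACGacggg
HSP90B1, chr12:103930211-103930239, plus strand: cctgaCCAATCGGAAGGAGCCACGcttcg
HSP90B1, chr12:103930316-103930344, plus strand: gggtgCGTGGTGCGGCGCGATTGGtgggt
CALR, chr19:12938379-12938407, plus strand: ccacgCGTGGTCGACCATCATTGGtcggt
XBP1, chr22:28800598-28800626, minus strand: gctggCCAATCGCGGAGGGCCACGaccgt
HERPUD1 (ERSE-II), chr16:56932020-56932040, plus strand: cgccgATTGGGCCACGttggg
HERPUD1 (CARE), chr16:56931961-56931978, plus strand: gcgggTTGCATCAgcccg
ATF3 (CARE), chr1:212565211-212565228, plus strand: caggaTGATGGAAggctg

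Human cells numbered 4885 in D0 and between 5952 and 8363 in the grafts, with a median of 9847 UMIs per cell in D0 and between 1253 (HIP_2MPT) and 2759 (HIP_4MPT) in the grafts. A UMI is a tag that marks 1 captured RNA molecule. Mitochondrial transcripts took a median of 7.31% of the UMIs of a cell in PFC_4MPT and between 2.35% and 3.77% in the other libraries, and PFC_4MPT gave 849 of the 1136 cells of cluster 13, whose cells were shallow (0.464 of the median depth of their library). Pairs of libraries shared between 6 and 20 cell barcodes, at most 0.289% of the smaller library. D0 was dissociated with TrypLE and the grafts with Trypsin-EDTA, and D0 was counted with another release of Cell Ranger and another annotation, which cannot be told apart from transplantation. Neither can age, since the grafts were 2 or 4 months older than D0. The study also compared grafts with organoids kept longer in culture, but that sample is not among these libraries. Levels are given as CPM (counts of UMIs scaled to the summed UMIs of the library or class) with exact 95% Poisson intervals, which cover counting error only.

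Chaperones of the ER lumen were higher in D0 than in most grafts. HSPA5 (ENSG00000044574, BiP, the main ER chaperone of the Hsp70 family, which also holds the sensors inactive) stood at 288 CPM (284 to 293) in D0, 122 (115 to 129) in HIP_2MPT and 160 (155 to 166) in HIP_4MPT, with 173 (166 to 180) in PFC_2MPT and 134 (129 to 140) in PFC_4MPT. D0 was above every graft library, 1.95 times the graft mean of 147 ± 23.4 CPM (SD, n = 4). CALR (calreticulin, a lectin chaperone that binds glycoproteins and calcium) stood at 325 CPM in D0, 164 in HIP_2MPT and 249 in HIP_4MPT, with 200 in PFC_2MPT and 208 in PFC_4MPT. D0 was again above all 4 grafts, and HIP_4MPT was the next highest. PDIA4 (a protein disulfide isomerase) stood at 62.6 CPM in D0, 25.1 in HIP_2MPT and 51.9 in HIP_4MPT, with 34.8 in PFC_2MPT and 35.3 in PFC_4MPT. D0 was highest and HIP_4MPT next again, while PFC_2MPT and PFC_4MPT were alike within counting error. HSP90B1 (GRP94, the ER form of Hsp90) stood at 319 CPM in D0, 200 in HIP_2MPT and 374 in HIP_4MPT, with 230 in PFC_2MPT and 194 in PFC_4MPT. For this chaperone HIP_4MPT was above D0, so that D0 and the 4MPT stage overlapped.

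The transcription factors did not share this pattern. ATF4 (the effector of the integrated stress response) stood at 170 CPM (166 to 173) in D0, 164 (156 to 171) in HIP_2MPT and 56.9 (53.8 to 60.3) in HIP_4MPT, with 98.0 (93.0 to 103) in PFC_2MPT and 88.3 (83.8 to 92.9) in PFC_4MPT. The intervals of D0 and HIP_2MPT overlapped, and HIP_4MPT was lowest. DDIT3 (a factor of the CCAAT/enhancer binding family linked to cell death under long stress) stood at 55.2 CPM in D0, 61.3 in HIP_2MPT and 34.5 in HIP_4MPT, with 41.6 in PFC_2MPT and 56.1 in PFC_4MPT. D0 lay inside the range of the grafts. XBP1 ranged from 39.6 (HIP_4MPT) to 56.3 CPM (D0), and the intervals of D0, HIP_2MPT and PFC_4MPT overlapped. ATF3 (an early stress factor that immediate early signals also induce) stood at 19.1 CPM in D0, 22.4 in HIP_2MPT and 8.22 in HIP_4MPT, with 15.6 in PFC_2MPT and 21.7 in PFC_4MPT. Against the dual reference, which also offers the mouse genome to the reads, ATF3 was at 15.3 CPM in HIP_2MPT, so the human level there depended on the reference.

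HERPUD1 (a membrane protein of ER-associated degradation) was, like HSPA5, CALR and PDIA4, highest in D0, with 83.0 CPM and between 39.2 and 53.6 CPM in the grafts. D0 was above all 4 grafts. Among the grafts its order differed from that of CALR and PDIA4, as it was lowest in HIP_4MPT and highest in PFC_4MPT. TRIB3 (a pseudokinase that binds ATF4 and AKT) stood at 18.7 CPM (17.6 to 19.9) in D0, 16.99 (14.6 to 19.6) in HIP_2MPT and 9.96 in HIP_4MPT, with 13.5 in PFC_2MPT and 12.7 in PFC_4MPT. D0 and HIP_2MPT overlapped in counting error. DDIT3, HERPUD1, HSP90B1 and CALR overlap other annotated genes on the same strand, microRNA or long noncoding genes for the most part, so their counts are uncertain to that extent.

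**Figure D1:**
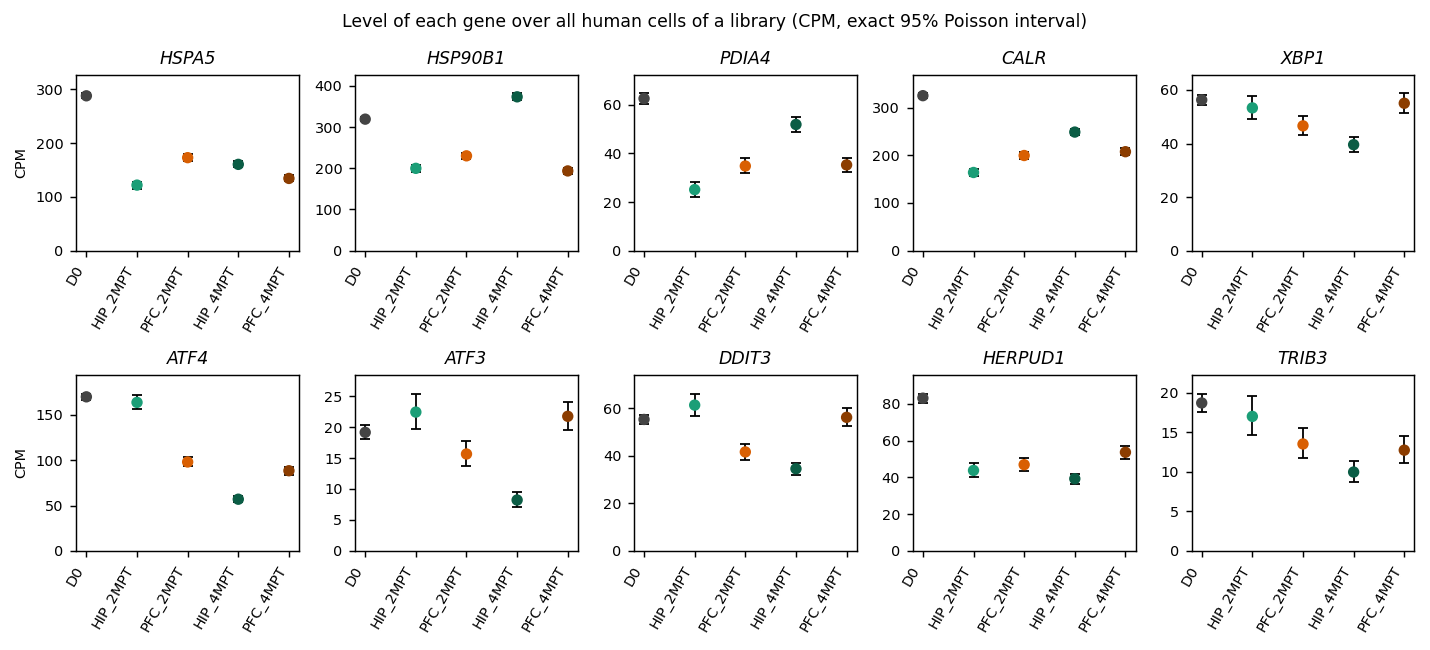
Level of each of the 10 genes (CPM, y axis from 0) in the 5 libraries (x axis), summed over all human cells, where bars are exact 95% Poisson intervals. HSPA5, CALR, PDIA4 and HERPUD1 were highest in D0, while ATF4 was about as high in HIP_2MPT (164 CPM) as in D0 (170 CPM).

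Summed over all human cells, 5 of the 10 genes fell from D0 to 2MPT by edgeR's quasi-likelihood test (adjusted p under 0.05 over 19074 genes), where 21.1% of all genes were called lower and 27.2% higher, and none rose. PDIA4 changed by -1.43 ± 0.31 on the log2 scale (SE, adjusted p = 0.00343, edgeR). HSPA5 changed by -1.34 ± 0.29 (adjusted p = 0.00387, edgeR), HERPUD1 by -1.25 ± 0.29 (adjusted p = 0.00519), CALR by -1.21 ± 0.27 (adjusted p = 0.00463) and HSP90B1 by -0.94 ± 0.35 (adjusted p = 0.0435). From D0 to 4MPT, 6 fell and none rose, where 21.4% of genes were called lower and 28.7% higher. These were ATF4 (-1.53 ± 0.36, adjusted p = 0.00509, edgeR), HSPA5 (-1.29 ± 0.29, adjusted p = 0.00449), HERPUD1 (-1.15 ± 0.29), TRIB3 (-1.03 ± 0.33, adjusted p = 0.0225), PDIA4 (-0.85 ± 0.31, adjusted p = 0.041) and CALR (-0.83 ± 0.28, adjusted p = 0.0281). The members had a median of -0.85 at 2MPT and -0.84 at 4MPT, beside 0.07 and 0.08 for all genes tested. XBP1, ATF3 and DDIT3 did not pass the test at either stage, with log2 fold changes between -0.66 and -0.39. Both comparisons use the single D0 library, which is assumed to vary like the others. Simulated data held 100 genes changed 2-fold and 100 changed 4-fold among 18259, and the test recovered 6% and 87% of them at 2MPT. Far fewer genes changed there than were called here, which makes the adjusted threshold stricter. These shares thus do not give the recovery of the real test. Without HIP_2MPT the call of HSP90B1 at 2MPT was lost and ATF4 was called. At 4MPT, without PFC_4MPT 3 genes were called (ATF3, ATF4, HERPUD1), and without HIP_4MPT 5 were called, with HERPUD1 and TRIB3 lost and HSP90B1 gained.

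Fold changes also depended on the scaling. TMM, which scales libraries so that most genes stay level, gave D0 a factor of 0.826 and the grafts between 0.996 and 1.085. With library totals alone, the median of all genes tested was 0.44 at 2MPT and 0.40 at 4MPT, and HSPA5 was at -0.97 at both stages (adjusted p = 0.019 and 0.0184, edgeR). With those totals, 4 members fell at 2MPT (CALR, HERPUD1, HSPA5, PDIA4) and 3 at 4MPT (ATF4, HERPUD1, HSPA5). Of all genes, those called lower with totals were not counted apart from those called higher. The number called in either direction is not given here, so these counts have no background beside them. CPM ratios in the text are thus on the scale of totals and tests on the scale of TMM.

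Between stages, no member passed the test in 4MPT against 2MPT, where 0.55% of genes were called lower and 1.85% higher. DESeq2 called 0 members as well. With edgeR 2 members had an unadjusted p under 0.05, a looser threshold at which the share of all genes is not given here. ATF4 changed by -0.78 ± 0.31 (adjusted p = 0.276, edgeR) and PDIA4 by 0.58 ± 0.26 (adjusted p = 0.361). ATF4 was called in this comparison once PFC_2MPT was left out. In PFC against HIP, the stage was a covariate and 1 residual degree of freedom was left. There 0 members passed the adjusted test with edgeR or DESeq2, beside 0.0876% of genes called with edgeR. No member had an unadjusted p under 0.05 with edgeR either. A result of this kind does not show that levels were equal, since 2-fold changes were mostly missed between stages too (17% recovered on simulated data).

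**Figure D2:**
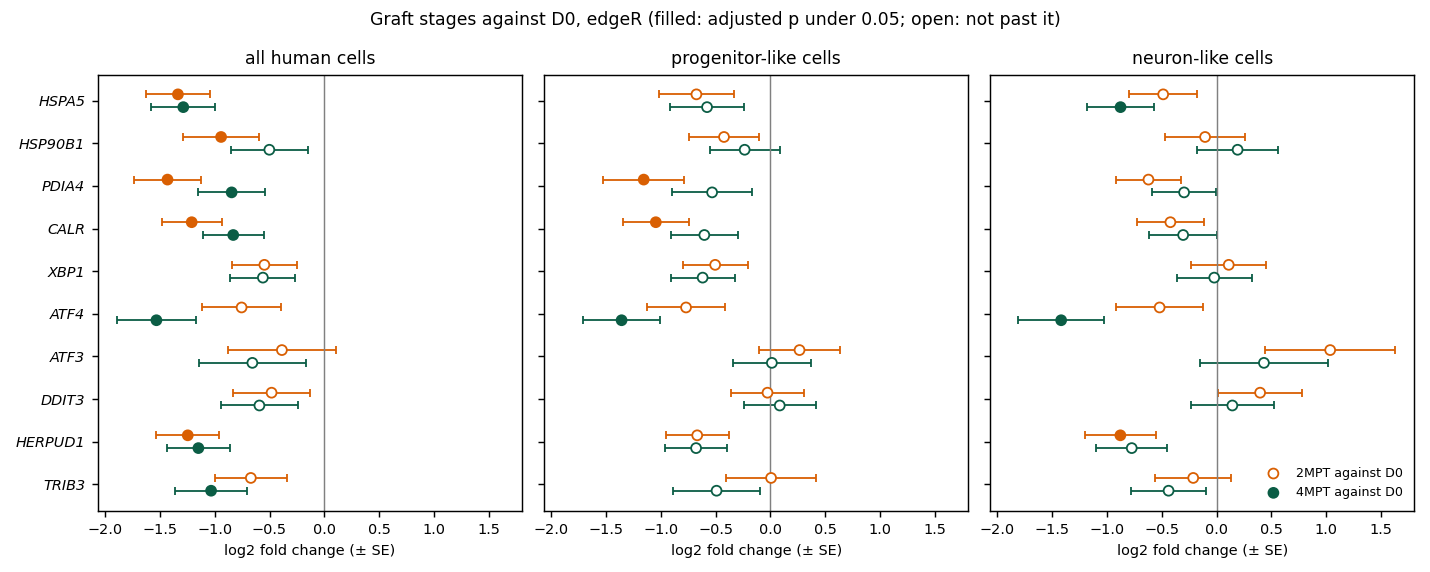
Log2 fold change (x axis, ± SE) of each gene in 2MPT and 4MPT against D0, for all human cells, progenitor-like cells and neuron-like cells, where filled points passed an adjusted p of 0.05 (edgeR). HSPA5 was at -1.34 and -1.29 over all cells, and at -0.68 and -0.58 in progenitor-like cells, where it did not pass the test.

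Cells were next divided into classes, so that a change within a class could be read apart from a change in the make-up of a library. The make-up of a class itself could still differ between libraries. Clusters were formed without the 10 genes, and most genes of the other stress lists, among the variable genes, and named from marker genes. Progenitor-like cells (radial-glia-like and cycling clusters) numbered 1892 in D0 and between 838 and 1108 in each graft. They include cluster 16 (955 cells), whose top 10 genes by fold held 2 markers of radial glia and 1 of intermediate progenitors. Over the full marker sets its mean log2 level relative to all clusters was higher for intermediate progenitors (0.910) than for radial glia (0.597). It had 80 cells in HIP_2MPT and 254 in PFC_2MPT, and no run left it out. Neuron-like cells numbered 1778 in D0 and between 4646 and 7262 in each graft. They include clusters 5 (2308 cells) and 10 (1420 cells), whose top 10 genes by fold held 3 (EOMES, PPP1R17, NEUROG1) and 2 (EOMES, NHLH1) markers of intermediate progenitors and none of glutamatergic or inhibitory neurons. Results for the class are therefore also given without both clusters, which leaves 1569 cells in D0 and between 3777 and 6012 in each graft, an alternative chosen after the data were seen. The neuron-like class also includes cluster 9, whose top 10 genes held 5 markers of inhibitory neurons. It had 86 cells in D0, 19 in each 2MPT library, 245 in HIP_4MPT and 1090 in PFC_4MPT. No run left this cluster out, so its part in the neuron-like results was not tested. Choroid-plexus-like cells, the epithelium that secretes cerebrospinal fluid, numbered 1046 in D0. They carried 29745 CPM of TTR, the main secreted protein of this epithelium. The 276 graft cells of the same cluster carried between 0 and 48 CPM of TTR, so the graft cells were not read as choroid plexus. Astrocyte-like cells numbered 205 in HIP_4MPT and 166 in PFC_4MPT but 1 in D0, 8 in HIP_2MPT and 2 in PFC_2MPT, so this class was not tested.

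Among the 3 named classes of D0 with at least 50 cells, the choroid-plexus-like cells held the highest levels of all genes but ATF4. HSPA5 stood at 615 CPM (601 to 630) there, beside 248 in progenitor-like and 157 in neuron-like cells. DDIT3 stood at 133 CPM (126 to 140), beside 38.5 and 33.9. HERPUD1 was at 149 CPM (beside 64.5 and 69.5), TRIB3 at 45.4 CPM (beside 8.94 and 16.7) and ATF3 at 44.3 CPM (beside 17.6 and 6.80). ATF4 stood at 157 CPM in choroid-plexus-like, 181 in progenitor-like and 162 in neuron-like cells. Choroid-plexus-like cells were 21.4% of D0 cells and gave 19.3% of its UMIs, but 46.7% of its TRIB3, 46.3% of its DDIT3, 44.5% of its ATF3 and 41.1% of its HSPA5 UMIs. They gave 17.8% of its ATF4 UMIs. At a finer clustering (resolution 1.6) this class kept 562 D0 cells, with 776 CPM of HSPA5 and 169 CPM of DDIT3. Without integration it held 613. Progenitor-like D0 cells numbered 1892 at first, 2515 at resolution 1.6 and 1694 without integration, and neuron-like D0 cells 1778, 1778 and 2578. Many of the 1046 cells were thus not kept in this class, and some may be progenitors. The shares above and the runs without this class rest on the broader cluster. TTR was at 644 CPM in progenitor-like and 255 CPM in neuron-like cells of D0, far below its own class.

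Without the choroid-plexus-like cluster, D0 held 36.8 CPM of DDIT3, below 3 of the 4 grafts (34.8 to 61.4 CPM). TRIB3 was then at 12.3 CPM in D0 and 9.98 to 17 in grafts, and ATF3 at 13.1 CPM in D0 and 8.25 to 22.03 in grafts. HSPA5 was at 210 CPM in D0, still above the grafts (121 to 171). CALR was at 277 CPM beside 161 to 246 in grafts, and HERPUD1 at 67.2 beside 39.3 to 53.6. In the test without these cells, 4 members fell at 2MPT (CALR, HERPUD1, HSPA5, PDIA4) and 3 at 4MPT (ATF4, HERPUD1, HSPA5). For this fit, genes called lower were not counted apart from those called higher. The share called in either direction is not given here, so these counts have no background beside them. The log2 fold change of DDIT3 was 0.07 at 2MPT and -0.03 at 4MPT in that fit (adjusted p = 0.879 and 0.944, edgeR).

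Among progenitor-like cells, HSPA5 stood at 248 CPM in D0, 168 in HIP_2MPT and 270 in HIP_4MPT, with 271 in PFC_2MPT and 179 in PFC_4MPT, so that D0 lay inside the range of the grafts. HSP90B1 did so too, with 374 CPM in D0 and between 315 and 547 CPM in the grafts. Progenitor-like cells of HIP_2MPT held 845 CPM of the neuron marker STMN2, beside 164 to 297 CPM in those of the other libraries. The part of such neuronal RNA in the levels and calls of this class was not tested. Of the 10 genes, 2 fell from D0 to 2MPT in this class, beside 18.3% of all genes called lower. These were PDIA4 (-1.16 ± 0.37, adjusted p = 0.0222, edgeR) and CALR (-1.05 ± 0.30, adjusted p = 0.013, edgeR). From D0 to 4MPT only ATF4 fell (-1.36 ± 0.35, adjusted p = 0.00594, edgeR), beside 20% of genes called lower. None of these 3 calls held with library totals alone, those of PDIA4 and CALR were lost without HIP_2MPT (when ATF4 was called), and that of ATF4 was lost without HIP_4MPT. With totals alone HSP90B1 lay at 0.10 and 0.21 at 2MPT and 4MPT, against -0.42 and -0.24 with TMM, so its direction turned with the scaling. Of the 1892 D0 cells of the class, 915 were in cluster 12, whereas cluster 8, which also carries astrocyte markers, held 84 D0 cells and between 315 and 411 cells of each graft. The summed level of 8 astrocyte markers in the class was 79.6 CPM in D0, 288 and 320 at 2MPT and 671 and 775 at 4MPT, and its part in these results was not tested beyond leaving out cluster 8, after which PDIA4 and CALR (2MPT) and ATF4 (4MPT) were called and HERPUD1 joined at 4MPT.

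Among neuron-like cells, HSPA5 stood at 157 CPM in D0, 116 in HIP_2MPT and 86.7 in HIP_4MPT, with 135 in PFC_2MPT and 97.1 in PFC_4MPT. D0 was above all 4 grafts, at 1.16 times the highest. HERPUD1 had 69.5 CPM in D0 and between 35.1 and 51.8 in the grafts, which did not overlap either. At 2MPT HERPUD1 was the only member that fell (-0.88 ± 0.32, adjusted p = 0.0429, edgeR), beside 16.9% of genes called lower, and at 4MPT ATF4 (-1.42 ± 0.39, adjusted p = 0.0109) and HSPA5 (-0.88 ± 0.31, adjusted p = 0.0324) fell, beside 18.6%. The call of HERPUD1 was lost with library totals alone, without HIP_2MPT and without PFC_2MPT (when ATF3 was called higher). At 4MPT the call of HSPA5 was lost without either 2MPT library, and without HIP_4MPT none was left. ATF3 and DDIT3 were not highest in D0, with 6.80 CPM of ATF3 in D0 and 4.86 to 20.9 CPM in grafts, and 33.9 CPM of DDIT3 in D0 and 30.2 to 60.9 CPM in grafts, and neither passed the test. The D0 share of this class was mostly cluster 15 (1072 of 1778 cells), led by RELN, CALB2 and NTS, and the calls were HERPUD1 at 2MPT and ATF4, HERPUD1 and HSPA5 at 4MPT without it. Without clusters 5 and 10 the calls were HERPUD1 at 2MPT and ATF4 and HSPA5 at 4MPT. HSPA5 was then at 149 CPM in D0 and between 79.1 and 127 CPM in grafts, and HERPUD1 at 68.6 CPM beside 36.6 to 53.1 CPM, so D0 lay above all 4 grafts for both genes. In both classes, 0 members passed the test between stages or between sites with edgeR or DESeq2. Of all genes, edgeR called 1.41% between stages in progenitor-like and 1.26% in neuron-like cells. Between sites it called 0.00743% and 0.0318%. Between stages 0 members in progenitor-like and 1 in neuron-like cells had an unadjusted p under 0.05 (edgeR), and between sites none had. The share of all genes at this looser threshold is not given here.

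**Figure D3:**
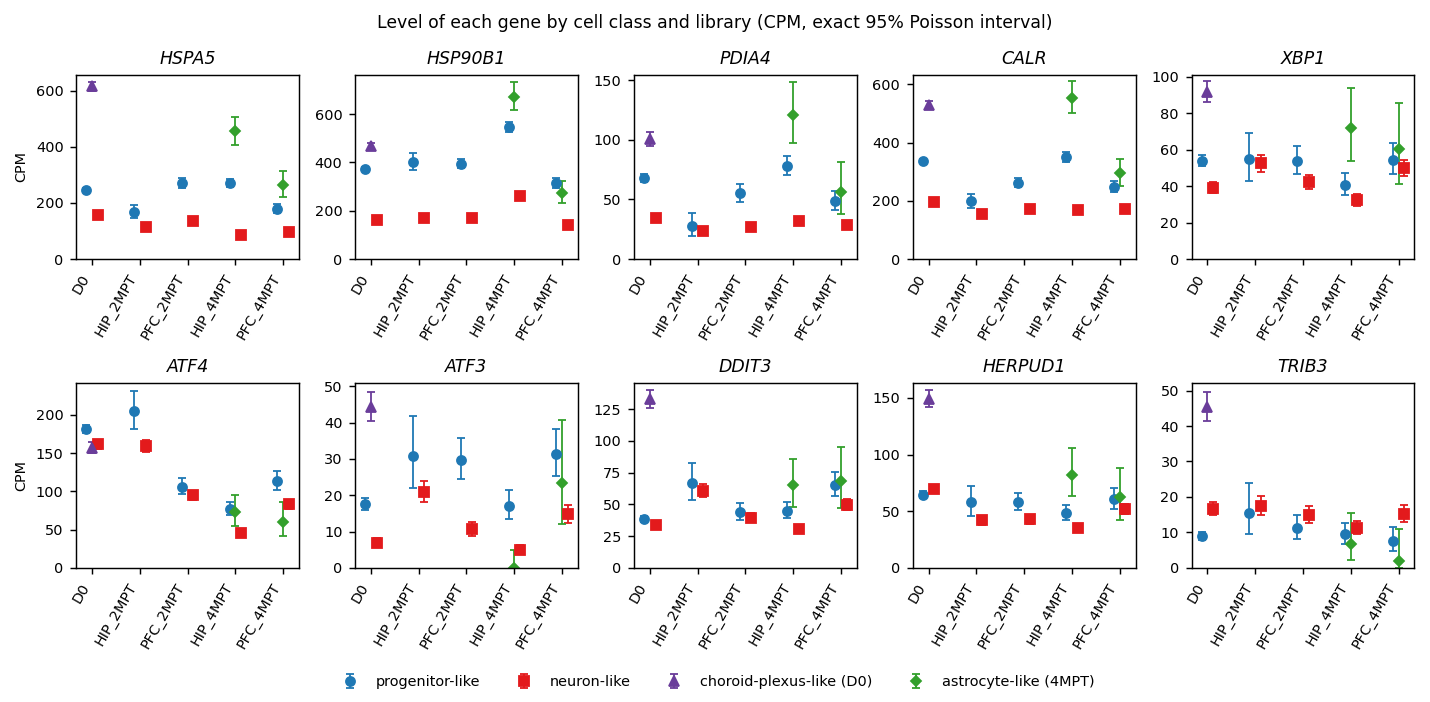
Level of each gene (CPM, y axis from 0) in progenitor-like and neuron-like cells of the 5 libraries, in choroid-plexus-like cells of D0 and in astrocyte-like cells of the 4MPT libraries, with exact 95% Poisson intervals. Chaperones were higher in progenitor-like than in neuron-like cells of every library, though the intervals of PDIA4 overlapped in HIP_2MPT. ATF4 moved with the library in both classes.

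Chaperone levels differed between the classes of every library. HSP90B1 was between 2.08 and 2.36 times as high in progenitor-like as in neuron-like cells of the same library, and the ratio was between 1.45 and 3.12 for HSPA5, between 1.27 and 2.06 for CALR and between 1.17 and 2.42 for PDIA4. All 4 chaperones were higher in progenitor-like cells in 5 of 5 libraries. XBP1, ATF4, DDIT3 and ATF3 were as well, with ratios from 1.04 for XBP1 in HIP_2MPT to 3.52 for ATF3 in HIP_4MPT. HERPUD1 was higher in progenitor-like cells of the 4 grafts (1.17 to 1.38) but not of D0 (0.929). TRIB3 was lower in progenitor-like cells in all libraries (0.508 to 0.883), but its intervals for the classes overlapped in HIP_2MPT, PFC_2MPT and HIP_4MPT. Among the chaperones these intervals overlapped only for PDIA4 in HIP_2MPT. For XBP1, ATF4, DDIT3, ATF3 and HERPUD1 they overlapped in some libraries. Against neuron-like cells without clusters 5 and 10, each gene was higher in progenitor-like cells in as many libraries as before, with ratios between 2.07 and 2.42 for HSP90B1 and between 1.55 and 3.42 for HSPA5. Astrocyte-like cells of the 4MPT grafts held 455 CPM of HSPA5 (408 to 506) in HIP_4MPT and 265 (222 to 314) in PFC_4MPT, above the progenitor-like cells of the same libraries. CALR was at 554 CPM (503 to 610) in astrocyte-like cells of HIP_4MPT, also above progenitor-like cells (349), and at 294 CPM (249 to 345) in those of PFC_4MPT, where the intervals overlapped. HSP90B1 was at 673 CPM in HIP_4MPT, beside 547 CPM in progenitor-like cells. In PFC_4MPT that order was not kept, with 275 CPM (231 to 324) of HSP90B1 in astrocyte-like and 315 CPM (295 to 336) in progenitor-like cells. In the 171 oligodendrocyte-lineage-like cells, all but 2 from 4MPT, HSPA5 was at 446 CPM in HIP_4MPT and 234 in PFC_4MPT. The classes were formed from the same cells, and these ratios are descriptions without a test.

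Over the grid of 5 libraries and 2 classes (progenitor-like and neuron-like), variation of log2(CPM + 1) was split into a part between libraries, a part between classes and a remainder. The part between classes was 81.5% for HSP90B1, 70.6% for HSPA5, 68.0% for CALR and 54.8% for PDIA4, beside a median of 17.2% over 7369 genes with a mean of at least 20 CPM. The part between libraries was 87.9% for ATF4 and 80.2% for DDIT3, beside a median of 67.0%. For XBP1 and HERPUD1 it lay below that median. ATF3 and TRIB3 varied more between classes (52.8% and 47.5%) than between libraries (41.9% and 35.5%), so the factors did not share 1 pattern. Without clusters 5 and 10 the part between classes was 81.6% for HSP90B1 and 73.5% for HSPA5, and the part between libraries was 87.2% for ATF4. In progenitor-like cells ATF4 stood at 181 CPM in D0, 206 in HIP_2MPT and 77.5 in HIP_4MPT, with 106 in PFC_2MPT and 114 in PFC_4MPT. In neuron-like cells D0 held 162 CPM, the HIP grafts 159 (2MPT) and 46.1 (4MPT), and the PFC grafts 94.9 (2MPT) and 82.9 (4MPT). In both classes D0 and HIP_2MPT were high, both PFC libraries were in the middle and HIP_4MPT was lowest. The median depth per cell was 9847 UMIs in D0, 1253 (2MPT) and 2759 (4MPT) in the HIP grafts and 2359 (2MPT) and 1840 (4MPT) in the PFC grafts, so that the shallowest and the deepest library were the ones high in ATF4. With each cell thinned to 1000 UMIs, 14.99% of D0 cells, 15.1% of HIP_2MPT, 9.36% of PFC_2MPT, 7.96% of PFC_4MPT and 5.50% of HIP_4MPT cells had a UMI of ATF4.

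**Figure D4:**
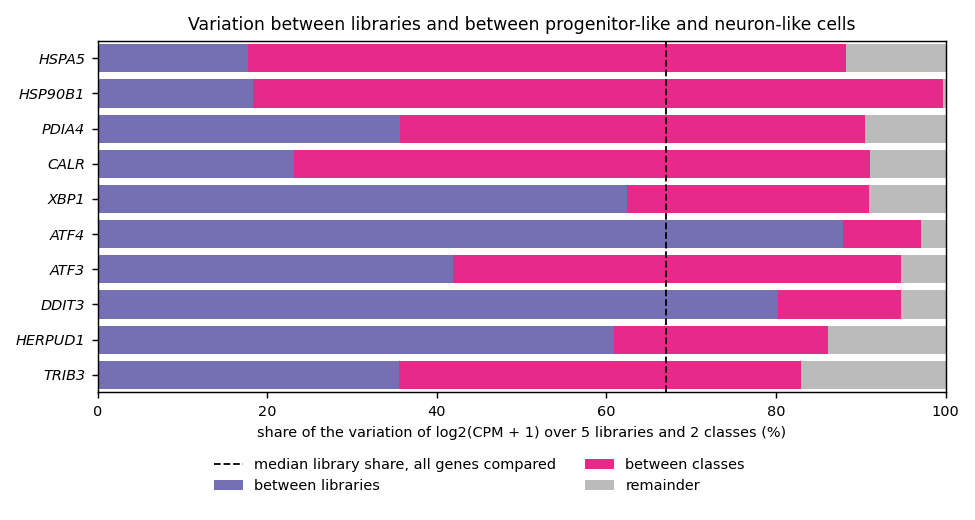
Share of the variation of log2(CPM + 1) (x axis, %) between 5 libraries, between progenitor-like and neuron-like cells, and remaining, for each gene. The part between classes was 81.5% for HSP90B1, and the part between libraries was 87.9% for ATF4, where the dashed line marks the median library part of 67.0% over the genes compared.

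At equal depth, 20.9% of D0 cells (19.7 to 22.1, exact 95% Clopper-Pearson interval) had a UMI of HSPA5, and between 10.8% (HIP_2MPT) and 14.2% (PFC_2MPT) of graft cells. Unthinned shares were 67.9% and 13.9% to 28.6%. DDIT3 had a UMI in 5.00% of D0 cells and in 3.33% to 5.78% of graft cells at equal depth. Thinning left out 282 cells of D0 and between 183 (HIP_4MPT) and 1732 (HIP_2MPT) of the grafts. Mouse host barcodes, from other droplets of the same graft libraries, should hold no human RNA. Human HSPA5 had a UMI in 0.389% to 2.18% of them and human ATF4 in 0.389% to 5.35%, with a median of between 53 and 239 human UMIs per host barcode. The largest share, ATF4 in HIP_2MPT, came with 332 CPM of ATF4 among the human UMIs of host barcodes, above the 164 CPM of human cells, and its part in the level of ATF4 in that library was not tested. In the other grafts the ATF4 level of host barcodes (50.9 to 83.8 CPM) rested on 3 UMIs in PFC_2MPT, 15 in HIP_4MPT and 27 in PFC_4MPT, too few to set it above or below the human cells.

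Single cells of D0, thinned to 5000 UMIs each, showed how the genes varied together within a class. In 552 choroid-plexus-like cells, HSPA5 had a Spearman rho of 0.41 with HSP90B1 and 0.40 with CALR, the first and the second of 6028 genes. DDIT3 had a rho of 0.34 with HERPUD1 and 0.31 with TRIB3, and HERPUD1 one of 0.31 with TRIB3. Between these groups rho was lower, with 0.20 for HSPA5 and DDIT3 and 0.07 for HSPA5 and TRIB3. The 552 cells come from the broader cluster of 1046 D0 cells, of which some may be progenitors. The part of such a mixture in these values was not tested. ATF4 had DDIT3 (0.25) as the second of all genes. In 1558 progenitor-like cells HSPA5 had CALR (0.26) and HSP90B1 (0.25) as the first and the second of 5801 genes. PDIA4 (0.16) was the fourth. The rho of HSPA5 was 0.09 with DDIT3, at rank 76, and -0.05 with ATF4. DDIT3 also had a rho of 0.09 with HERPUD1 there, so it was about as close to HSPA5 as to HERPUD1. ATF4 had a rho of 0.02 with DDIT3 in this class, at rank 1132. In 1385 neuron-like cells the values were weak, though HSP90B1 (0.13), XBP1 (0.12) and CALR (0.12) were the first, the second and the fourth of 6365 genes for HSPA5. These cells share 1 library, and the values describe it.

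Over 19 sums of a library and a class, the genes whose log2(CPM + 1) was most like that of HSPA5 among 7560 genes were OSBPL1A (Pearson r = 0.91), SPART (0.90), PDIA6 (0.89), CALR (0.87) and CMTM6 (0.87). PDIA6 is a further disulfide isomerase of the ER. PDIA4 (0.81) and HSP90B1 (0.78) followed at ranks 21 and 52, and r was 0.03 for ATF4. For DDIT3 they were CREB3 (0.84), an ER-anchored transcription factor, FAM234A (0.81), CFAP410 (0.78), AURKAIP1 (0.78) and MLST8 (0.78), with XBP1 (0.75) at rank 8. The sums share libraries, so these values are descriptions over few independent points.

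Other genes of the pathway were read as lists, whose counts at 2MPT stand beside 21.1% of all genes called lower and 27.2% called higher. Of 25 targets of ATF4 and CHOP, 17 fell and 2 rose from D0 to 2MPT over all human cells (median -1.33), and 19 fell and 2 rose to 4MPT (median -1.99). Among the 25, STC2 had 1618 UMIs in D0 and at most 4 in any graft, and GDF15 had 953 and at most 9. Both could pass the filter on low counts only through D0, so a fall was the only direction open to them. The counts and medians of this list were not computed without these genes. DDIT4, an inhibitor of the growth kinase mTORC1, stood at 596 CPM in D0 and between 18.8 and 38.8 CPM in the grafts (-5.08 ± 0.39 at 2MPT). Hypoxia genes, given below, fell in the same comparison, and the part of hypoxia in the fall of DDIT4 was not tested. TNFRSF10B, a death receptor, stood at 50.01 CPM in D0 and between 2.89 and 4.16 CPM in the grafts. ASNS, asparagine synthetase, stood at 43.5 CPM in D0 and between 2.46 and 6.69 CPM in the grafts. For these 3 genes D0 was far above every graft, also above HIP_2MPT, where ATF4 itself was about as high as in D0. They were named by the size of their fall at 2MPT, so a level far below D0 was built into the choice. Other genes of the list were nearer to D0 in HIP_2MPT, such as CHAC1 (8.05 CPM in D0, 6.96 in HIP_2MPT) and SLC7A5 (19.4 and 15.2). EIF4EBP1 was higher there (120 and 169), so the list did not share 1 order. NUPR1 (0.734 CPM in D0, 8.22 to 25.8 in grafts) and ALDH1L2 (4.82 CPM in D0, 9.78 to 19.2 in grafts) rose at 2MPT. Within classes 13 of the 25 fell and 3 rose in progenitor-like cells and 16 fell and 1 rose in neuron-like cells at 2MPT. Of all genes, 18.3% and 16.9% were called lower in these classes, and the share called higher was not counted. CEBPG, a partner of ATF4, was the only gene of this list that fell between 2MPT and 4MPT (-1.10, adjusted p = 0.046, edgeR), and SLC7A11, the cystine transporter, the only one that rose (1.84, adjusted p = 0.024).

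Of 18 other ER chaperones and folding enzymes, 7 fell and 2 rose at 2MPT (median -0.68). P4HB (-2.14), the common disulfide isomerase, CANX (-2.09), the membrane partner of calreticulin, and PDIA6 (-1.93) fell. SIL1 (1.49), an exchange factor of BiP, and ERO1B (1.20), an oxidase, rose. Of 16 translocon and signal peptidase genes 7 fell (SRPRA at -2.42, SSR1 at -1.51 and SSR3 at -1.42), and of 13 genes of ER-associated degradation 3 fell, DERL1 (-1.13) and DERL2 (-0.90) among them, which is close to the share of all genes called lower. None of either list rose. Of 12 sensors, eIF2 kinases and phosphatase subunits 6 fell and none rose, with PPP1R15B (-2.04), a subunit that removes the phosphate from eIF2, EIF2AK1 (-1.65), the heme-sensing kinase, and EIF2AK4 (-1.30), the amino acid sensor. The 3 ER sensors did not pass the test, with 0.70 for EIF2AK3 (PERK), 0.24 for ATF6 and 0.22 for ERN1 (IRE1). Of 12 aminoacyl-tRNA synthetases, which ATF4 induces, 7 fell, YARS1 (-1.56), AARS1 (-1.10) and EPRS1 (-1.03) among them. The study named HSPA5, ARCN1, GORASP2 and ATF6B as ER stress genes on these samples, and all 4 fell at 2MPT, which is not independent evidence of direction.

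Lists outside the pathway moved too. Of 10 hypoxia genes 9 fell at 2MPT (median -4.06), with SLC2A1, the glucose transporter, at 171 CPM in D0 and 5.82 to 9.66 CPM in grafts. Of 9 immediate early genes, which include FOS and JUN and which dissociation can induce, 6 rose and 1 fell (median 1.76). FOS stood at 404 CPM in D0 and between 1502 and 2679 CPM in the grafts. The enzyme used for dissociation changed together with these genes, and its part in the level of ATF3, which shares such induction, cannot be told apart from grafting. Of 9 cytosolic heat shock genes 3 fell (HSPB1, HSPD1, HSPH1) and none rose at 2MPT, while 1 rose at 4MPT. That 1 was HSPA1A, an inducible Hsp70, at 49.3 CPM in D0 and 51.8 in HIP_2MPT but 452 in PFC_2MPT, 367 in HIP_4MPT and 474 in PFC_4MPT (2.78 at 4MPT, adjusted p = 0.0316, and 2.00 at 2MPT, adjusted p = 0.0923, edgeR). Its near-identical copy HSPA1B stood at 92.9 CPM in D0, 31.7 in HIP_2MPT and between 167 and 226 in the other 3 grafts, and did not pass the test at either stage. Reads may be split between these copies, so each level is uncertain. For HSPA1A the HIP_2MPT library was about as low as D0, unlike the other 3 grafts.

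**Figure D5:**
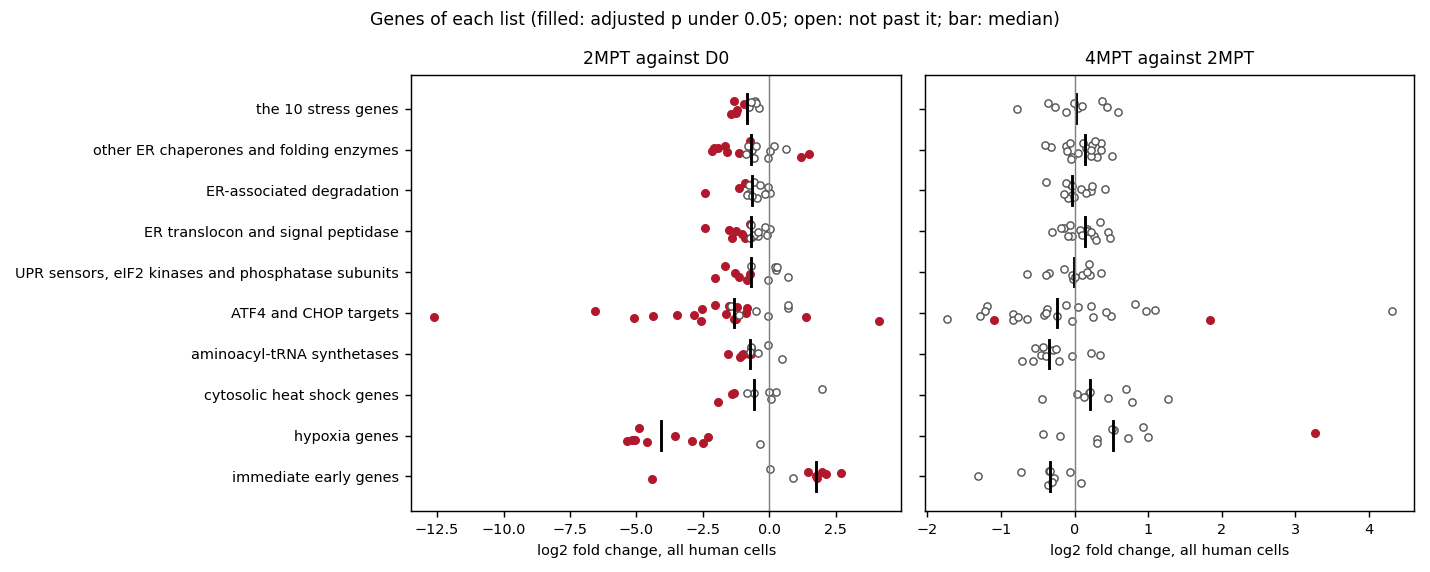
Log2 fold change (x axis) over all human cells in 2MPT against D0 (left) and 4MPT against 2MPT (right) for each gene of the lists, where filled points passed an adjusted p of 0.05 (edgeR) and bars are medians. Medians were -1.33 for ATF4 and CHOP targets, -4.06 for hypoxia genes and 1.76 for immediate early genes at 2MPT.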

How the data were processed

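Droplet libraries (10x Chromium 3′ V3) were counted by the authors with Cell Ranger against GRCh38, and for grafts also against a dual human and mouse reference. The deposited values are UMI counts per gene and cell. The labels' processing notes name Cell Ranger 3.1 and R 4.1.1, whereas the file headers give Cell Ranger 3.1.0 for D0 and 5.0.0 for the grafts. Barcodes were kept with at least 500 UMIs, 500 genes, a complexity (log genes over log UMIs) of at least 0.8, a mitochondrial share under 0.15 and, in grafts, a human share over 0.8 in the dual reference. Doublets were not called. Cells were clustered with Seurat 5.3.0 (2500 variable genes, 40 components, integration, resolution 0.8) and named from markers. A list of 136 symbols of stress genes was kept out of the variable genes. It missed the aminoacyl-tRNA synthetases, which carry older symbols in the deposited data.

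Counts were summed per library and class and tested with edgeR 4.0.16 (quasi-likelihood, TMM, filter on low counts, Benjamini-Hochberg adjustment over all genes tested, threshold 0.05). The models held 3 groups (D0, 2MPT, 4MPT), or site with stage. DESeq2 1.42.0, other scalings, filters, clusterings and left-out libraries were alternatives, and the tests were tried on simulated data. Classes needed 50 cells in each library, which astrocyte-like cells did not reach. Members and lists were chosen with earlier results of these data known. Named from each other list were at most 3 genes that rose and 3 that fell, those with the greatest log2 fold change at 2MPT past the threshold and a mean of at least 10 CPM, and other genes of a list were named after their values were seen. DDIT3, HERPUD1, HSP90B1 and CALR overlap other genes on the same strand, so their counts are uncertain.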

Additional observations from a re-analysis of the deposited data

Results flagged for a closer look

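For 5 genes the level went in opposite directions from 2MPT to 4MPT at the 2 graft sites, with the Poisson intervals of the stages apart at each site. There was 1 library for each site and stage, so the difference was not tested. HSPA5 changed by 0.40 in HIP and -0.36 in PFC on the log2 CPM scale, a difference (HIP minus PFC) of 0.761. HSP90B1 changed by 0.90 in HIP and -0.25 in PFC, a difference of 1.15. The other 3 went the other way round. XBP1 changed by -0.43 in HIP and 0.24 in PFC (difference -0.67), DDIT3 by -0.83 and 0.43 (difference -1.26) and ATF3 by -1.45 and 0.47 (difference -1.92). ATF4 fell in both, by 1.52 in HIP and by 0.15 in PFC.

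The opposite moves were not all found within classes. In neuron-like cells HSPA5 changed by -0.42 in HIP and -0.48 in PFC, lower at both sites, whereas in progenitor-like cells it changed by 0.69 in HIP and -0.59 in PFC. The progenitor-like cells of HIP_2MPT held 845 CPM of the neuron marker STMN2, beside 164 CPM in those of HIP_4MPT. The part of this difference in the HIP change was not tested. HSP90B1 and DDIT3 moved in opposite directions in both classes with the intervals of the stages apart at each site. XBP1 and ATF3 also had opposite signs in both classes, but the intervals of the stages overlapped in PFC (0.01 and 0.24 for XBP1 and 0.08 and 0.48 for ATF3 in progenitor-like and neuron-like cells). Within the neuron-like class, the inhibitory cluster 9 went from 19 to 1090 cells in PFC and from 19 to 245 in HIP. Its part in these moves was not tested. PFC_4MPT also had the highest median mitochondrial share (7.31%, beside 2.35% to 3.77%) and held 849 of the 1136 cells of the shallow cluster 13. Without that cluster, HSPA5 changed by 0.40 in HIP and -0.38 in PFC, and the directions of the other 4 were kept. The part of the mitochondrial share was not tested.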

How the results depend on the processing

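No fold change called for a member was reversed under any alternative run. Of the members' log2 fold changes under alternatives, 1204 kept both their call and their direction, 36 lost the call and 18 gained it. A further 82 were called in neither run but turned direction. From D0 to 4MPT over all human cells, 6 members were called, but 3 with library totals only and 3 without choroid-plexus-like cells, and between 3 and 6 when 1 graft library was left out. From D0 to 2MPT that range was 5 to 5, and between stages 0 to 1, where the 1 was ATF4 without PFC_2MPT. In progenitor-like cells 2 were called at 2MPT (1 to 3 with a library left out, 0 with totals only) and 1 at 4MPT (0 to 2 with a library left out, 3 without integration, 2 without cluster 8, 0 with totals only). In neuron-like cells 1 was called at 2MPT (0 to 1 with a library left out, 2 without integration, 0 with totals only) and 2 at 4MPT (0 to 3 with a library left out). Between stages in neuron-like cells the range was 0 to 1 with a library left out, where the 1 was ATF4 without PFC_4MPT. With the graft site as a replicate block, 0 members were called at 2MPT and 1 at 4MPT in neuron-like cells, and 5 and 4 over all human cells. In the comparisons with D0 or within classes, no share of all genes called stands beside the member counts of alternative runs, here or above. These counts thus do not tell a change of the members from a change in calls over all genes. The causes were not tested.

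The labels give no replicate numbers, and the site differences at both stages correlated at r = -0.15 over 19074 genes. Over all genes, 457 were called between stages, against 1347 with no filter, 659 with DESeq2, 734 with the replicate block and 32 to 1508 with a library left out. Between sites 15 were called, against 36 with no filter, 7 with DESeq2, 3 with RLE scaling and 0 with no stage in the fit. Leaving out a library there leaves no residual degrees of freedom and was not run, and neither were tests of astrocyte-like cells alone. With clusters 7, 8 and 18 as 1 class, HSPA5 (-1.21) and CALR (-1.27) were called at 2MPT and HERPUD1 (-0.90) at 4MPT. This class held 85 cells in D0, 369 and 446 at 2MPT and 1487 and 1109 at 4MPT. Cluster 7, whose top genes include OLIG1, GSX1 and EGFR, gave 0 of the D0 cells but 871 in HIP_4MPT and 613 in PFC_4MPT. The classes compared thus differed in make-up, and no share of all genes called stands beside these calls. Levels in progenitor-like cells stayed inside their interval in 42 of 50 values at resolution 1.6 and in 27 of 50 without integration, and in neuron-like cells in 49 and 41 of 50. Alternatives that leave out cells of a cluster, library totals and the block within classes were chosen after seeing the data. Depth limits the classes most in HIP_2MPT, with a median of 1253 UMIs per cell.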
